A study of Sus scrofa with 44 samples.

Results

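Fetal pig back muscle at mid gestation was compared with the same muscle early in gestation. The comparison took the 3 input libraries of the longissimus dorsi at 60 days post coitus (E60) against the 3 input libraries at 33 days post coitus (E33), and added the lists of m6A peaks from the 3 immunoprecipitated samples of each stage. These are 12 of the 44 samples of the series, chosen by stage. The study followed N6-methyladenosine (m6A), a methyl mark on RNA, through the formation of skeletal muscle before birth, with MeRIP-seq, in which an antibody against m6A pulls methylated RNA fragments out of a sample and the unselected RNA is sequenced beside it as the input. Both stages are untreated fetal muscle, prepared as rRNA-depleted total RNA and immunoprecipitated with an antibody from Synaptic Systems. The labels give no breed, sex, litter or pooling of fetuses, and nothing says that the 3 libraries of a stage came from separate animals, so the p-values measure only the spread between these libraries. Of 22427 genes in the expression files, 13863 had a mean of at least 1 TPM, a share of all transcripts corrected for gene length, over the 6 libraries and were tested.

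Skeletal muscle forms in waves. Myoblasts leave the cell cycle, fuse into multinucleated fibres and assemble contractile proteins into sarcomeres, first as primary fibres and later as secondary fibres laid along them. In the embryonic trunk the forming muscle lies close to the neural tube, the cartilage of the vertebrae and the growing vessels. The m6A mark is placed by a methyltransferase complex built around METTL3 and METTL14, mostly within the sequence GGAC near stop codons and in long exons, and is read by YTH domain and IGF2BP proteins.

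Examples of peaks with the m6A sequence context were taken from genes that changed. The sequences are given here because the results on peaks turn on genes with a peak at 1 stage and not at the other. They were read from the RefSeq genome of Sscrofa11.1 on the strand that the peak list gives, and capitals mark the strings GGACA and GGACC and the string GGACT. The first pair are whole coding peaks of genes that were lower at E60 and had a peak at E33 only: ZIC2 (chr11:68840890-68841009, + strand) and SFRP1 (chr17:10439543-10439842, - strand). The second pair are whole coding peaks of genes that were higher at E60 and had a peak at E60 only: FGL2 (chr9:102872003-102872212, + strand) and AQP4 (chr6:111411913-111412033, - strand).
ZIC2, E33 peak: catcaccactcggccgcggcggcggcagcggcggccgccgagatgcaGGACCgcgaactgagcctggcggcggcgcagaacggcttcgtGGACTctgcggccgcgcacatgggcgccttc
SFRP1, E33 peak: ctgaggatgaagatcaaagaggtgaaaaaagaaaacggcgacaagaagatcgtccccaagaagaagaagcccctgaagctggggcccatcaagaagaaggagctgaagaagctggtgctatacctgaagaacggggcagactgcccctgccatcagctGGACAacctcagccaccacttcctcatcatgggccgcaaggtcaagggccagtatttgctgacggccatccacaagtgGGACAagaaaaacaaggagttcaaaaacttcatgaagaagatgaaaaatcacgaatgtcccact
FGL2, E60 peak: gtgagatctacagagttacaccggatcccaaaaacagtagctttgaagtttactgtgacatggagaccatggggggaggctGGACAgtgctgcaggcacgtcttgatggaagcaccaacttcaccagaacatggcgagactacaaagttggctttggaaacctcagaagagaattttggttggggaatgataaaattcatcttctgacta
AQP4, E60 peak: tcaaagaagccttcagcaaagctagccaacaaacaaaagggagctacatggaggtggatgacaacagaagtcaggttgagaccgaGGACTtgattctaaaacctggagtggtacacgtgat

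Stretches of 29 bases around the match nearest to the middle of a peak show the same context at other genes of these classes. RUNX2 (chr7:40349123-40349151, + strand) and HOXB8 (chr12:24867010-24867038, - strand) are coding sites from peaks found at E33 only. SCN4A (chr12:15045554-15045582, + strand), MYOM2 (chr15:33537153-33537181, + strand) and PRELP (chr9:64200062-64200090, + strand) are coding sites from peaks found at E60 only. MYOZ1 (chr14:76451500-76451528, - strand) lies in a 5' UTR and PAX7 (chr6:77266581-77266609, + strand) in a 3' UTR, both from peaks found at E60 only.
RUNX2, E33 site: caaagccagagcGGACCcttccagaccag
HOXB8, E33 site: tcacatgcgctgGGACTaacagagagaca
SCN4A, E60 site: gatccactgcctGGACAtcctcttcgccc
MYOM2, E60 site: ccttgctgggagGGACCacctgtaggctc
PRELP, E60 site: ccagctctacctGGACAgcaacaagatcg
MYOZ1, E60 site: tgccgctctcagGGACCccagccccaaac
PAX7, E60 site: caagcctgtcctGGACCatgaccaaggag
These examples were picked because they hold a match, and the strongest peaks of other genes that changed, PTN, ACTA1, COL8A1, IGF2BP1 and CCND1 among them, held none. In the middle 101 bases of all peaks at least that long, on the strand of the peak, 46.6% of 7214 E33 peaks and 49.3% of 6234 E60 peaks held 1 of the 3 letter strings, against 21.7% and 22.3% on the opposite strand. A match is a description of the letters and not a methylated base.

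The expression files hold TPM, which sum to 1000000 in every library, so the sequencing depth is unknown and the number of libraries limits the precision. A gene without a symbol, ENSSSCG00000032395, held 37.4% to 59.5% of all TPM of a library, and the libraries were therefore scaled by the median of their ratios to the mean profile, with factors from 0.813 to 1.39. Levels are given below as scaled TPM for each library in the order of the replicate numbers, and changes as differences of log2(scaled TPM + 1), which understate the change of genes with low levels. Without the scaling, all tested genes had a median log2 change of -0.35, against -0.01 with it and -0.16 when the libraries were rescaled after removal of the 2 most abundant genes. Spearman correlations across genes were 0.907 to 0.921 between libraries of a stage and 0.829 to 0.846 between stages, and the first principal component, with 46.7% of the variance, separated the stages. A value at or near 0 in these files need not be a low level: TPI1, a glycolytic enzyme of every cell, was listed at 5e-06 to 9e-06 TPM in 5 of the 6 libraries. The 7 skeletal muscle markers that could be matched (MYOD1, MYOG, MYF5, ACTA1, DES, TNNC2 and CKM) were present in all 6 libraries.

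Between E33 and E60 nearly as many genes were higher as lower. With limma at a Benjamini-Hochberg adjusted p under 0.05, 3238 of the 13863 genes (23.4%) were called, 1612 higher at E60 (11.6%) and 1626 lower (11.7%). In all 3238 the 3 libraries of one stage lay outside the range of the other. Separation of the stages, where it is described below for a called gene, therefore adds nothing to its call. Genes not called, such as METTL14 and MUL1, were also separated in this way, so separation alone does not mark a call. The share of all 13863 genes that were separated is not given here, so the count of separated genes has no background beside it. The change exceeded 1 on the log2 scale in 1251 of the called genes, 648 higher and 603 lower. This even split depended on the scaling: higher genes made up 49.8% of the calls, 31.6% (1105 higher and 2389 lower) when the 2 most abundant genes were removed first, and 23.8% (397 and 1268) with TPM as deposited. In bulk muscle, fewer cells of a type and less RNA per cell cannot be told apart.

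**Figure D1:**
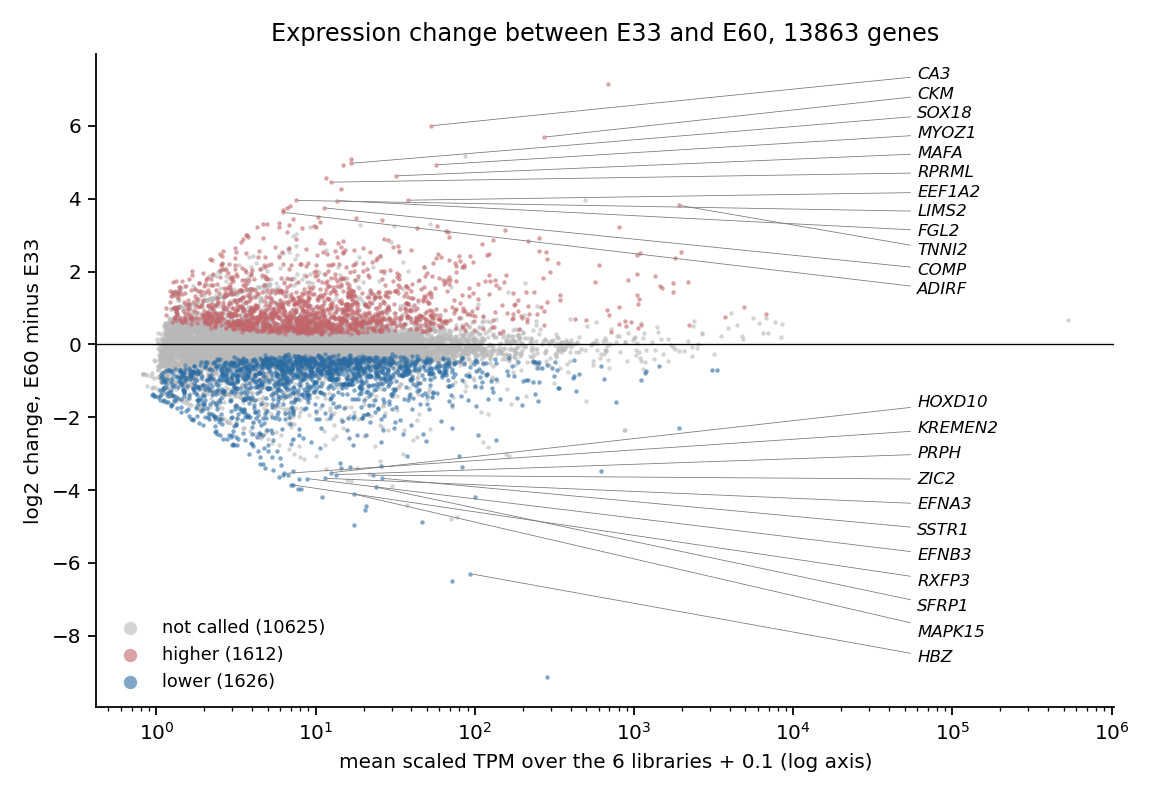
Change of each of the 13863 genes tested between E33 and E60 (y axis, log2 of scaled TPM + 1, E60 minus E33) against its mean scaled TPM over the 6 libraries plus 0.1 (x axis, log scale). Red points are the 1612 genes higher at E60, blue points the 1626 lower and grey points the genes not called. The genes named at the right, from CA3 at 6.00 to HBZ at -6.30, are among the largest rises and falls of genes with a symbol.

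The largest rises among genes with a symbol were in CA3 and CKM. CA3, a carbonic anhydrase of muscle fibres (chr4:51227485-51237861), had 0.640, 0.747 and 0.525 scaled TPM at E33 and 90.9, 132 and 93.4 at E60 (6.00, SE 0.16, limma adjusted p = 6.96e-05 for the log2 change). CKM, the muscle creatine kinase (chr6:51704021-51716935), had 7.41, 9.14 and 11.4 scaled TPM at E33 and 416, 563 and 619 at E60, with 5.69, SE 0.21, limma adjusted p = 0.000165. Both were low in every E33 library and high in every E60 library. The largest rises and falls were taken from called genes without overlap between the stages, so their separation follows from the choice. MYOZ1, a Z-disc protein of fast fibres that binds calcineurin, had 1.85, 2.28 and 3.89 scaled TPM at E33 and 77.7, 126 and 128 at E60 (4.93, SE 0.28, limma adjusted p = 0.000388). EEF1A2, the elongation factor form that muscle and neurons use after development, had 2.41, 4.15 and 4.49 scaled TPM at E33 and 63.3, 97.4 and 56.4 at E60 (3.96, SE 0.27, limma adjusted p = 0.000551). In both genes the lowest E60 library stood far above the highest E33 library. TNNI2, the inhibitory troponin of fast fibres, rose from an already high level, with 218, 252 and 284 scaled TPM at E33 and 2745, 3779 and 4263 at E60 (3.82, SE 0.20, limma adjusted p = 0.000352).

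The other seven of the 12 largest rises were SOX18, RPRML, ADIRF, LIMS2, MAFA, FGL2 and COMP, and most of these were listed at or near 0 at E33. SOX18, a transcription factor of endothelial cells, was listed at 0 in all 3 E33 libraries and had 17.5, 49.7 and 31.8 at E60 (limma adjusted p = 0.00059). RPRML and ADIRF were also listed at 0 at E33, with 26.6, 8.45 and 39.4 and with 5.89, 14.5 and 16.6 at E60. LIMS2, a focal adhesion protein, had under 0.01 in each E33 library and 11.2, 14 and 19.6 at E60 (3.95, SE 0.20, limma adjusted p = 0.000352). MAFA, a transcription factor best known from beta cells, had 4.28, 1.82 and 0 scaled TPM at E33 and 44, 78.5 and 61.6 at E60 (4.63, SE 0.61, limma adjusted p = 0.00411), and FGL2, a secreted fibrinogen-like protein, had 0, 1.51 and 1.17 scaled TPM at E33 and 24.3, 24.6 and 30.00 at E60 (3.95, SE 0.35, limma adjusted p = 0.0012). These genes were clearly detected in all 3 E60 libraries. COMP, a matrix protein of cartilage and tendon, was listed at 0 at E33 and had 44.0, 21.2 and 1.44 at E60, so its E60 libraries differed widely. Its limma adjusted p of 0.0485 was lost without any 1 of the libraries except E60 replicate 3 (adjusted p up to 0.126).

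The largest falls included an embryonic globin and genes of patterning and signalling. HBZ, the zeta globin of primitive red cells (chr3:41490758-41492883), had 145, 105 and 308 scaled TPM at E33 and 2.39, 0 and 1.92 at E60 (-6.30, SE 0.59, limma adjusted p = 0.00141). ZIC2, a zinc finger transcription factor of the dorsal neural tube and somites (chr11:68840802-68845441), had 47.1, 34.9 and 47.4 scaled TPM at E33 and 1.67, 3.30 and 3.16 at E60 (-3.59, SE 0.23, limma adjusted p = 0.000466). Every E33 library of both genes stood far above every E60 library, though separation of the stages was a condition of the choice.

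Genes for secreted proteins, membrane ligands and receptors fell in the same range. SFRP1, a secreted antagonist of Wnt ligands (chr17:10436414-10489773), had 37.6, 52.3 and 46.8 scaled TPM at E33 and 1.71, 2.0 and 2.51 at E60 (-3.92, SE 0.16, limma adjusted p = 0.000186). KREMEN2, a receptor for the Wnt inhibitor DKK, had 12.3, 12.4 and 12.4 scaled TPM at E33 and 0.514, 0 and 0 at E60 (-3.54, SE 0.19, limma adjusted p = 0.000354), and the relaxin family receptor RXFP3 had 15.4, 16.4 and 9.52 at E33 and was listed at 0 in all E60 libraries (limma adjusted p = 0.000357). The ephrins EFNB3 and EFNA3, membrane ligands that guide axons and set tissue boundaries, had 18.6, 17.4 and 14.6 scaled TPM at E33 and 0, 0 and 1.66 at E60 (-3.68, SE 0.40, limma adjusted p = 0.00215) and 21.8, 22.5 and 19.3 scaled TPM at E33 and 0, 4.22 and 0 at E60 (-3.68, SE 0.65, limma adjusted p = 0.0115). Each of the 5 was lower in every E60 library than in any E33 library, which the rule that chose them required. HOXD10, a posterior homeobox gene, had 20.7, 31 and 17.7 scaled TPM at E33 and 0.903, 0 and 3.51 at E60 (-3.52, SE 0.55, limma adjusted p = 0.00743). Of the other falls, MAPK15 (-4.11, limma adjusted p = 0.0144) was not called without E33 replicate 3 (0.0516), and the somatostatin receptor SSTR1 (-3.68, 0.0279) was not called without any 1 of the E33 libraries or E60 replicate 2 (up to 0.0881). The neuronal filament PRPH (-3.57, 0.0243) was not called without E33 replicate 2 or 3 or E60 replicate 2 or 3 (up to 0.0764).

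Genes of the sarcomere, the contractile unit of the fibre, rose together. Of 42 members tested, 38 were higher at E60 and 0 lower, against 11.6% higher and 11.7% lower over all genes tested. The median log2 change was 1.77 against -0.01 over all genes tested, and with TPM as deposited 24 were higher and 0 lower. The summed level of the list went from 11970 to 13258 scaled TPM at E33 to 29319 to 41018 at E60. After TNNI2 and MYOZ1, the largest changes were in TNNT3, the fast troponin T, with 150.0, 134 and 178 scaled TPM at E33 and 1159, 1534 and 1707 at E60 (3.23, SE 0.19, limma adjusted p = 0.000401), in MYBPC1, a myosin binding protein of the thick filament, with 27.8, 31.2 and 32.5 scaled TPM at E33 and 240.1, 321 and 279 at E60 (3.15, SE 0.14, limma adjusted p = 0.0002), and in MYOM2, an M-band protein, with 12.6, 12.1 and 13.6 scaled TPM at E33 and 104, 127 and 127 at E60 (3.12, SE 0.11, limma adjusted p = 0.000165). The values of each of the 3 genes at E33 lay in a narrow range well under the lowest E60 value.

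Other sarcomere genes were picked after their values were seen, for their roles. ACTA1, the skeletal alpha actin, had 555, 505 and 645 scaled TPM at E33 and 2334, 4380.4 and 3422 at E60 (2.53, SE 0.25, limma adjusted p = 0.00156). MYH8, the perinatal myosin heavy chain, had 513, 579 and 626 scaled TPM at E33 and 2222, 3106 and 3772 at E60 (2.37, SE 0.21, limma adjusted p = 0.00121), and MYH3, the embryonic heavy chain, had 2929, 3057 and 3557 scaled TPM at E33 and 5237, 7491 and 6972 at E60 (1.03, SE 0.17, limma adjusted p = 0.00904). MYH3 therefore stood above MYH8 in every library and rose less, and its call was lost with TPM as deposited, under quantile normalization and with no filter on low values. The myosin heavy chains are near-identical copies in tandem, so reads may have been split between them. TNNI1, the slow troponin I, had 94.7, 86.6 and 95.6 scaled TPM at E33 and 149.5, 195 and 177 at E60 (0.90, SE 0.12, limma adjusted p = 0.00493), which was also lost with TPM as deposited. DES, the muscle intermediate filament, had 213, 199 and 238 scaled TPM at E33 and 804, 1103 and 1049.9 at E60 (2.17, SE 0.15, limma adjusted p = 0.000606), and NEB, the ruler of the thin filament, had a change of 1.41, SE 0.11, limma adjusted p = 0.000728, lost with TPM as deposited.

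**Figure D2:**
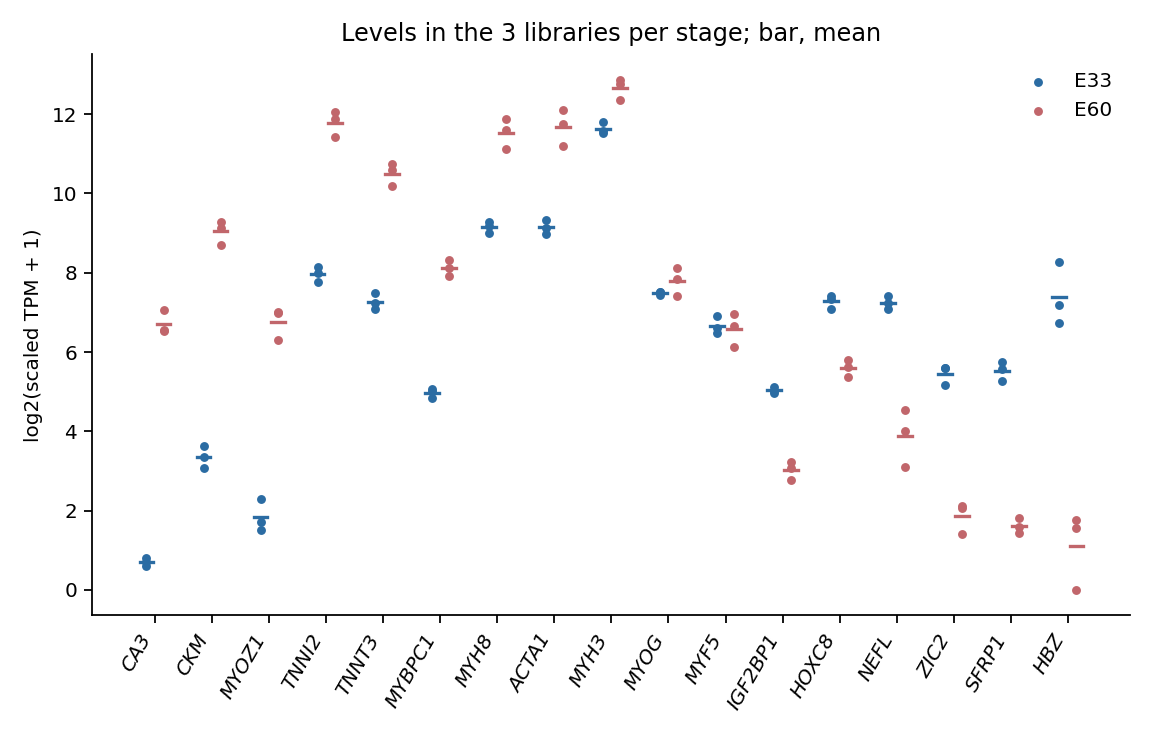
Levels of 17 genes in the 3 input libraries per stage (points, log2 of scaled TPM + 1) with the mean of each stage (bar). CA3, CKM and MYOZ1 rose from low levels and MYH3 from a high one, the 2 stages overlapped in MYOG and MYF5, and ZIC2, SFRP1 and HBZ fell to low levels.

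Genes that couple the electrical signal of the fibre to calcium release also rose. Of 20 members tested, 16 were higher at E60 and 0 lower, against 11.6% higher and 11.7% lower over all genes tested. The median log2 change was 1.22, and with TPM as deposited 9 were higher. JSRP1, a protein of the junction between the T-tubule and the sarcoplasmic reticulum, had 13.1, 12.2 and 14.6 scaled TPM at E33 and 83.5, 135 and 150.1 at E60 (3.07, SE 0.23, limma adjusted p = 0.000707). SYPL2, a protein of the triad, had 5.73, 5.05 and 6.0 scaled TPM at E33 and 45.5, 44.1 and 53.9 at E60 (2.89, SE 0.11, limma adjusted p = 0.000178). SCN4A, the sodium channel that carries the action potential of skeletal muscle, had 2.40, 1.67 and 2.19 scaled TPM at E33 and 19.97, 16.8 and 23.7 at E60 (2.77, SE 0.16, limma adjusted p = 0.000388). These genes were low and even at E33 and far higher in every E60 library. SLN, a small inhibitor of the calcium pump, had 6.72, 4.73 and 7.13 scaled TPM at E33 and 58.4, 42.2 and 52.1 at E60 (2.86, SE 0.18, limma adjusted p = 0.000466), whereas the pumps themselves changed less, with 1.01 for ATP2A2 and 0.77 for ATP2A1, both lost with TPM as deposited.

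Most genes of the neuromuscular junction were not called. Of 10 members tested, 0 were higher and 2 lower (AGRN and ACHE), against 11.6% higher and 11.7% lower over all genes tested, so the counts say nothing particular about the list. AGRN, the heparan sulfate proteoglycan that clusters acetylcholine receptors, had 62.6, 59.1 and 63.7 scaled TPM at E33 and 24.9, 27.4 and 22.9 at E60 (-1.27, SE 0.10, limma adjusted p = 0.00075). The E60 libraries of AGRN were all under the lowest E33 library. CHRNA1, the alpha subunit of the receptor, had 47.8, 55.0 and 44.5 at E33 and 51.9, 59.2 and 54.7 at E60 (0.17, SE 0.11, limma adjusted p = 0.327), so the stages overlapped. The call for ACHE, the esterase of the synapse (-0.46), was lost without E33 replicate 2 or 3 or E60 replicate 1 or 3 (limma adjusted p up to 0.0865).

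Myogenic regulators changed in both directions, and MYOD1, MYOG and MYF5 were not called. Of 32 myogenic regulators tested, 9 were higher and 7 lower at E60, against 11.6% higher and 11.7% lower over all genes tested. Their median of 0.25 turned to -0.14 with TPM as deposited, where 0 were higher and 5 lower. MYOD1, which commits cells to the lineage, had 218, 160.3 and 146 scaled TPM at E33 and 151, 198 and 195 at E60 (0.06, SE 0.19, limma adjusted p = 0.844). MYOG, which drives differentiation, had 180.3, 183 and 172 scaled TPM at E33 and 169, 229.7 and 278 at E60 (0.31, SE 0.19, limma adjusted p = 0.291), and MYF5 had 95.7, 88.6 and 119 scaled TPM at E33 and 69, 123 and 100.1 at E60 (-0.08, SE 0.24, limma adjusted p = 0.838). In these 3 genes the libraries of both stages overlapped, and with 3 libraries a stage a change of this size cannot be told from the spread.

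Among the regulators that rose were MYF6 and PROX1. MYF6, the factor of this family found in mature fibres, had 16, 8.56 and 24.8 scaled TPM at E33 and 43.5, 54.8 and 48.3 at E60 (1.62, SE 0.36, limma adjusted p = 0.0232); the call was lost without E33 replicate 1 or any 1 E60 library (limma adjusted p up to 0.0699). PROX1, a homeobox factor of slow fibres and of lymphatic endothelium, had 1.96, 2.72 and 2.69 scaled TPM at E33 and 7.34, 7.11 and 6.06 at E60 (1.19, SE 0.13, limma adjusted p = 0.00229). PAX7, the marker of muscle progenitors that become satellite cells, had 19, 17.5 and 16.9 scaled TPM at E33 and 27.1, 32 and 35.8 at E60 (0.79, SE 0.12, limma adjusted p = 0.00726), and all 3 calls were lost with TPM as deposited. The stages did not overlap in any of the 3 genes. The named regulators that fell act early in the somite and in cell adhesion. CDH2, the adhesion protein N-cadherin, had 13.6, 14.9 and 16 scaled TPM at E33 and 1.91, 1.83 and 1.24 at E60 (-2.58, SE 0.13, limma adjusted p = 0.000352). MEOX1, a homeobox factor of the somite, had 34.8, 34.4 and 45.2 scaled TPM at E33 and 18.9, 15.3 and 13.2 at E60 (-1.22, SE 0.17, limma adjusted p = 0.00493). In both genes the E60 levels were under all E33 levels, as in every gene called lower.

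Genes for the muscle forms of energy enzymes rose, and some forms of other tissues fell. Of 34 glycolysis and glycogen genes tested, 14 were higher and 7 lower at E60, against 11.6% higher and 11.7% lower over all genes tested. Their median of 0.27 became -0.04 with TPM as deposited. The rises after CKM were AMPD1, the muscle AMP deaminase, with 3.70, 3.14 and 4.17 scaled TPM at E33 and 26.9, 24.5 and 25.8 at E60 (2.52, SE 0.11, limma adjusted p = 0.0002), and PPP1R3A, the subunit that targets protein phosphatase to glycogen in muscle, with 3.30, 3.69 and 1.76 scaled TPM at E33 and 20.6, 18.8 and 22 at E60 (2.49, SE 0.21, limma adjusted p = 0.00104). ENO3, the muscle enolase, had 32.3, 24.4 and 28.4 scaled TPM at E33 and 140.2, 147 and 184 at E60 (2.43, SE 0.15, limma adjusted p = 0.000466), whereas ENO1, the enolase of most tissues, had 229.8, 227 and 226 scaled TPM at E33 and 116, 139 and 123 at E60 (-0.86, SE 0.10, limma adjusted p = 0.00278). ENO1 was the higher of the pair in every E33 library. The same opposite movement was measured for the muscle and other forms of glycogen phosphorylase, with 1.97 for PYGM and -1.39 for PYGB, of phosphoglycerate mutase, with 1.13 for PGAM2 and -0.72 for PGAM1, and of aldolase, with 2.40 for ALDOA and -1.84 for ALDOC. The call for PGAM2 was lost with TPM as deposited. The peak listed for ALDOC lies on nearly the same bases as that of another gene, SPAG5, and the split of reads between them was not tested. The pairs were picked after their values were seen.

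Most genes of oxidative metabolism were not called. Of 49 tested, 12 were higher and 1 lower (COX6A1), against 11.6% higher and 11.7% lower over all genes tested, with a median of 0.29 that became -0.08 with TPM as deposited, where 2 were higher and 0 lower. CPT1B, the muscle transporter of fatty acids into mitochondria, had 8.14, 6.22 and 7.83 scaled TPM at E33 and 27.2, 35.2 and 41.1 at E60 (2.07, SE 0.18, limma adjusted p = 0.00108). PPARGC1A, a coactivator of mitochondrial genes, had 0.660, 0.961 and 0.942 scaled TPM at E33 and 5.21, 10.7 and 5.01 at E60 (2.04, SE 0.28, limma adjusted p = 0.00477). Their libraries did not overlap between the stages, which held for every called gene. COX6A2, the muscle form of a cytochrome oxidase subunit, rose by less, with 8.27, 8.48 and 7.29 scaled TPM at E33 and 12.6, 14.9 and 16.3 at E60 (0.79, SE 0.12, limma adjusted p = 0.00663), and this call was lost with TPM as deposited. The call for COX6A1, the form of most tissues (-0.46), was lost without E33 replicate 3 or E60 replicate 2 or 3 (limma adjusted p up to 0.071).

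Cell cycle and DNA replication genes were lower at E60 or not called. Of 80 tested, 0 were higher and 27 lower (13 with TPM as deposited and 38 after removal of the 2 most abundant genes). Over all genes tested 11.6% were higher and 11.7% lower. The median change of the list was -0.30. UHRF1, which maintains DNA methylation at replication, had 63.2, 55 and 65.5 scaled TPM at E33 and 26.9, 31.2 and 28.5 at E60 (-1.06, SE 0.11, limma adjusted p = 0.00177). CCND1, the cyclin of entry into the cycle, had 36.9, 35.7 and 40.7 scaled TPM at E33 and 16.5, 23.8 and 15.3 at E60 (-1.01, SE 0.18, limma adjusted p = 0.0103), and POLE, a replicative polymerase, had 19, 17.1 and 17.2 scaled TPM at E33 and 7.51, 9.83 and 9.17 at E60 (-0.94, SE 0.12, limma adjusted p = 0.00336). The E60 means of these genes were 0.471, 0.490 and 0.497 times the E33 means, and the stages did not overlap. ESPL1, the separase of mitosis, fell as well (-0.82, SE 0.12, limma adjusted p = 0.0053).

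Genes of the extracellular matrix changed in both directions. Of 61 genes tested, 21 were higher and 16 lower at E60, against 11.6% higher and 11.7% lower over all genes tested. The list median of 0.39 was 0 to 2 decimals with TPM as deposited, where 6 were higher and 14 lower. PRELP, a leucine-rich proteoglycan that anchors basement membranes, had 3.01, 1.89 and 3.28 scaled TPM at E33 and 18.6, 23.5 and 32.3 at E60 (2.78, SE 0.24, limma adjusted p = 0.0011), and KERA, another proteoglycan of this family, had 6.35, 6.12 and 9.74 scaled TPM at E33 and 94.1, 48.2 and 31.2 at E60 (2.69, SE 0.41, limma adjusted p = 0.00663). The E60 libraries of KERA differed widely, but all stood above the E33 libraries. COL6A6 and COL21A1, collagens of the microfibril and fibril-associated kinds, changed by 2.02 and 2.00. Of the genes that fell, COL8A1, a short-chain collagen of vessel walls, had 16.5, 10.4 and 11.3 scaled TPM at E33 and 1.41, 1.08 and 0.649 at E60 (-2.74, SE 0.22, limma adjusted p = 0.000821). FN1, the fibronectin on which early embryonic cells migrate, had 322, 335 and 367 scaled TPM at E33 and 142, 168 and 96.8 at E60 (-1.36, SE 0.21, limma adjusted p = 0.00716), and TNC, tenascin C, had 78.9, 74.1 and 84.3 scaled TPM at E33 and 26.4, 30.1 and 28.9 at E60 (-1.44, SE 0.10, limma adjusted p = 0.000522). All 3 were lower in every E60 library than in any E33 library, as was every gene called lower.

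Genes of the oncofetal growth programme divided. Of 16 tested, 4 were higher and 5 lower, against 11.6% higher and 11.7% lower over all genes tested. The median of 0.12 turned to -0.25 with TPM as deposited and -0.03 after removal of the 2 most abundant genes. The 4 higher genes were imprinted ones: DLK1, a transmembrane relative of Notch ligands, had 137, 91.5 and 124 scaled TPM at E33 and 509, 594 and 534 at E60 (2.22, SE 0.17, limma adjusted p = 0.00075), and PEG10, a gene derived from a retrotransposon, had 678, 780.1 and 830.3 scaled TPM at E33 and 1873, 2246 and 2547 at E60 (1.53, SE 0.15, limma adjusted p = 0.00166). PLAGL1 (1.04) and PEG3 (0.82) were the other two, and the calls for PEG10, PLAGL1 and PEG3 were lost with TPM as deposited. Among the lower genes, IGF2BP1 is described with the m6A genes.

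Positional genes of the HOX clusters were mostly lower. Of 27 tested, 1 was higher (HOXD8, 1.30, lost with TPM as deposited) and 16 were lower, against 11.6% higher and 11.7% lower over all genes tested. The median was -1.24, and a further 7 members matched in the files were under the minimum. HOXB6 had 162, 176 and 199 scaled TPM at E33 and 30.4, 35.9 and 27 at E60 (-2.49, SE 0.14, limma adjusted p = 0.000388), HOXB5 had 41.6, 32.4 and 32.8 scaled TPM at E33 and 4.96, 4.50 and 7.18 at E60 (-2.49, SE 0.18, limma adjusted p = 0.000682) and HOXC5 had 58.5, 42.3 and 64.8 scaled TPM at E33 and 13.1, 14.4 and 9.20 at E60 (-2.09, SE 0.22, limma adjusted p = 0.00198). The summed level of the list was 1928 to 2445 scaled TPM at E33 and 733 to 1108 at E60. HOXC10 varied between the E60 libraries, with 40.8, 35.4 and 41.7 at E33 and 18.9, 3.97 and 41.1 at E60 (-1.32, SE 0.74, limma adjusted p = 0.255), and was not called. HOXA9, HOXA10 and HOXD9 were also lowest in E60 replicate 2 and not called. HOX genes overlap their antisense partners and one another, and whether the counting used the strand is not given in the sources used here.

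The genes that write, erase and read m6A showed no called change outside the IGF2BP family. Of 21 tested, 0 were higher and 3 lower, IGF2BP1, IGF2BP2 and IGF2BP3, which is near the 11.7% lower over all genes tested. IGF2BP1, a reader that stabilises its target RNAs, had 31.5, 30.4 and 34 scaled TPM at E33 and 5.84, 7.37 and 8.29 at E60 (-2.02, SE 0.13, limma adjusted p = 0.000488). IGF2BP2 had 31.3, 33.6 and 30.02 scaled TPM at E33 and 17.4, 16.2 and 16.9 at E60 (-0.87, SE 0.08, limma adjusted p = 0.00151), and IGF2BP3 had 16.8, 19 and 16.2 scaled TPM at E33 and 12.2, 12.7 and 13.4 at E60 (-0.41, SE 0.09, limma adjusted p = 0.026). The IGF2BP1 and IGF2BP2 libraries were far apart between the stages, and the call for IGF2BP3 was lost with TPM as deposited and without any 1 library except E33 replicate 3 (limma adjusted p up to 0.0751).

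Of the methyltransferase genes none passed the test. METTL3, the catalytic subunit, had 11.5, 12.3 and 12.1 scaled TPM at E33 and 10.8, 11.5 and 13.6 at E60 (-0.01, SE 0.10, limma adjusted p = 0.976), and METTL14, its partner, had 9.26, 9.07 and 9.19 scaled TPM at E33 and 8.91, 8.45 and 8.29 at E60 (-0.09, SE 0.07, limma adjusted p = 0.413). The erasers FTO (-0.05, SE 0.09, limma adjusted p = 0.714) and ALKBH5 (0.06, SE 0.11, limma adjusted p = 0.745) were not called either. Libraries of both stages overlapped in METTL3, FTO and ALKBH5. A miss of the threshold does not show that the levels were the same. RBM15B, a complex subunit, had the largest value outside the IGF2BP genes, with 209, 197 and 229 scaled TPM at E33 and 110.3, 150.0 and 178 at E60 (-0.55, SE 0.19, limma adjusted p = 0.0876), and was called after removal of the 2 most abundant genes, under quantile normalization and with all 18 libraries. METTL16, another methyltransferase (-0.22), was called after removal of the 2 most abundant genes and with all 18 libraries.

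Markers of other tissues moved between the stages as well. Neuron and neural tube markers were lower or mostly not called: of 28 tested, 1 was higher (DCX) and 11 lower. Over all genes tested 11.6% were higher and 11.7% lower. The median of these markers was -0.94, and their sum was 356 to 491 scaled TPM at E33 and 143 to 156 at E60. NEFL, the light neurofilament, had 135, 150.4 and 169.6 scaled TPM at E33 and 15.2, 22 and 7.58 at E60 (-3.37, SE 0.36, limma adjusted p = 0.00197), STMN2, a growth cone protein, had 12, 15.4 and 14.2 scaled TPM at E33 and 0.422, 0.235 and 0.354 at E60 (-3.47, SE 0.13, limma adjusted p = 0.000165), and NSG1, a protein of neuronal endosomes, had 12.8, 13.2 and 12.3 scaled TPM at E33 and 0.896, 1.93 and 1.18 at E60 (-2.59, SE 0.17, limma adjusted p = 0.000496). NEUROG2, a factor of neuronal precursors, had 2.95, 2.51 and 2.44 at E33 and was listed at 0 at E60, a call that was lost with all 18 libraries. The call for DCX (0.38) was lost when any 1 library was left out (limma adjusted p up to 0.115). A further 19 markers matched in the files were under the minimum, among them ELAVL3, ELAVL4, SNAP25 and OLIG2. The sum of the neuron markers fell together with ZIC2 and the ephrins, and the part of neural tissue in those results was not tested.

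Cartilage and bone markers were mostly lower. Of 16 tested, 13 had a log2 change below 0 and 3 above it, with a median of -0.69. The calls were 2 higher (COMP and COL11A2) and 5 lower, against 11.6% higher and 11.7% lower over all genes tested. The sum of the list was 337 to 433 scaled TPM at E33 and 135 to 380 at E60. RUNX2, the master factor of bone formation, had 6.38, 5.49 and 6.01 scaled TPM at E33 and 0.206, 0.195 and 0.172 at E60 (-2.55, SE 0.12, limma adjusted p = 0.000311). MATN4, a matrix protein, had 15.2, 7.55 and 11.09 scaled TPM at E33 and 0, 0.851 and 0.408 at E60 (-3.11, SE 0.31, limma adjusted p = 0.00171), and COL9A1, a cartilage collagen, had 5.80, 4.89 and 6.08 scaled TPM at E33 and 0.389, 0.463 and 0.346 at E60 (-2.23, SE 0.13, limma adjusted p = 0.000415). SOX9, the factor of cartilage cells, fell from 62.6, 61.4 and 78.1 to 19.2, 35.1 and 22.7 (-1.39, SE 0.23, limma adjusted p = 0.00933). COL11A2 was high where COMP was high, with 6.42, 4.77 and 7.96 scaled TPM at E33 and 50.5, 28.4 and 11.7 at E60, and its call was lost without any 1 library except E60 replicate 3 (limma adjusted p up to 0.123). The E60 libraries thus differed in cartilage or tendon markers, and the part of such tissue in the matrix genes was not tested.

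Red cell markers moved in both directions. Of 14 erythroid markers tested, 4 were higher, 1 lower (HBZ) and 9 not called, against 11.6% higher and 11.7% lower over all genes. Their sum was 436 to 770 scaled TPM at E33 and 1293 to 2630 at E60, and most of the E60 sum was HBB. HBB, the adult beta globin in the symbol table, had 176, 511 and 311 scaled TPM at E33 and 2447, 1118 and 1687 at E60 (2.45, SE 0.46, limma adjusted p = 0.0134), SPTB, a spectrin of red cells and muscle, had 4.89, 5.85 and 6.39 scaled TPM at E33 and 31.4, 39.4 and 43 at E60 (2.53, SE 0.15, limma adjusted p = 0.000418), and ALAS2, the heme enzyme of red cells, had 1.97, 2.39 and 1.12 scaled TPM at E33 and 6.03, 5.02 and 6.31 at E60 (1.29, SE 0.20, limma adjusted p = 0.00683). HBZ and HBB moved in opposite directions in every library. Globin genes are close copies, and the split of reads between them is uncertain.

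Of 20 endothelial markers tested, 12 were higher and 0 lower, against 11.6% higher and 11.7% lower over all genes tested. Their median was 0.83, with sums of 169 to 188 at E33 and 313 to 405 at E60. With TPM as deposited 2 were higher and 0 lower. ROBO4, a receptor of vessel walls, had 6.84, 10.1 and 8.85 scaled TPM at E33 and 21.4, 29.6 and 25.1 at E60 (1.46, SE 0.17, limma adjusted p = 0.00293), KDR, the main receptor of the growth factor VEGF, had 8.66, 10.4 and 11.8 scaled TPM at E33 and 26.6, 29.7 and 29.7 at E60 (1.40, SE 0.13, limma adjusted p = 0.00125), and PECAM1, an adhesion protein of endothelium, had 3.69, 4.47 and 5.55 scaled TPM at E33 and 11.7, 15.2 and 12.2 at E60 (1.34, SE 0.16, limma adjusted p = 0.00291). Those 3 calls were lost with TPM as deposited, though no library of one stage reached the other stage. These moved with SOX18 and PROX1, and the part of endothelial cells in those results was not tested.

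The remaining marker lists were small, and over all genes tested 11.6% were higher and 11.7% lower. Of 7 adipocyte markers tested, 3 were higher: FABP4, a fatty acid carrier, was listed at 0 at E33 and had 4.20, 10.9 and 4.67 at E60, LPL, the lipase that releases fatty acids from lipoproteins, had 0.854, 1.18 and 1.30 scaled TPM at E33 and 10.04, 5.70 and 9.19 at E60 (2.11, SE 0.21, limma adjusted p = 0.00175), and PLIN4 (1.15), whose call was lost without E33 replicate 2 or 3 or E60 replicate 1 or 3 (limma adjusted p up to 0.0965). ADIPOQ, PLIN1 and PPARG were under the minimum. Of 7 Schwann and crest markers 1 was higher (PMP22), of 15 macrophage and leukocyte markers 1 was higher (CD74), and both calls were lost with TPM as deposited. Of 6 epidermis markers 2 were lower (KRT8 and KRT18), and of 2 liver markers 0 were called, with ALB, AFP and APOB under the minimum.

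**Figure D3:**
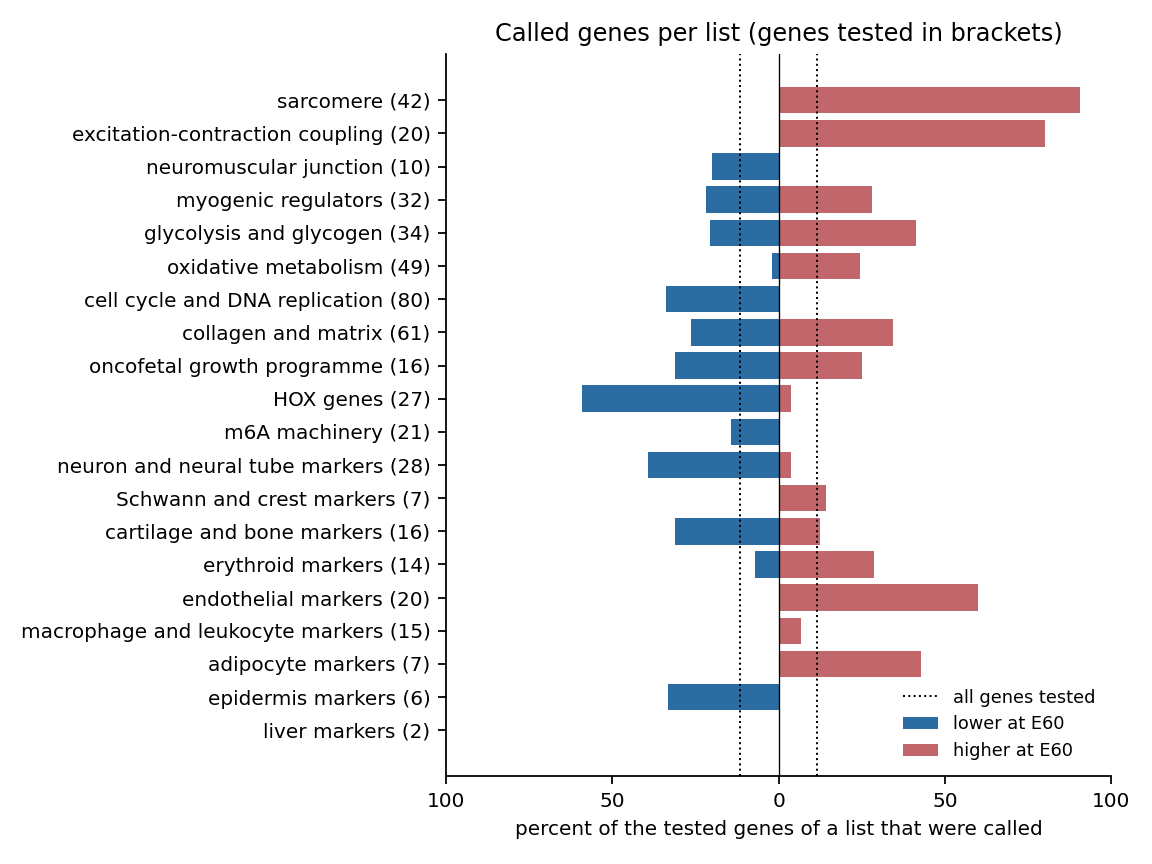
Percent of the tested genes of each of the 20 lists that were higher (red, to the right) or lower (blue, to the left) at E60, with the number tested in brackets. Dotted lines mark 11.6% higher and 11.7% lower over all genes tested. The sarcomere bar, 38 of 42 genes, is the longest to the right and the HOX bar, 16 of 27, the longest to the left.

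The peak lists are 1 per stage, without replicates, and the fold enrichment of a peak is the value the authors deposited. The E33 list held 8685 peaks in 4767 genes with a median fold enrichment of 3.51, and the E60 list 7545 peaks in 4278 genes with a median of 4.06. By at least 1 base, 68.5% of the E33 peaks (95% Wilson interval 67.5 to 69.4) overlapped an E60 peak and 81.0% of the E60 peaks (80.1 to 81.9) overlapped an E33 peak. These intervals cover counting error only. Peaks without an overlap were split about evenly between genes that had another peak at the other stage and genes that had none: 53.0% of the 2738 such E33 peaks and 52.1% of the 1434 such E60 peaks lay in genes with a peak at both stages.

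Most tested genes with a peak had one at both stages. Of the 13863 genes tested, 3647 had a peak at both, 1025 at E33 only, 560 at E60 only and 8631 at neither. Genes with a peak at 1 stage mostly had a single peak (83.1% at E33 only and 86.4% at E60 only, against 51.3% of those with peaks at both). The 1025 E33-only genes included 36 higher and 279 lower at E60, and their log2 change had a median of -0.19. The 560 E60-only genes included 195 higher and 23 lower (median 0.27). The class with peaks at both stages gave 508 higher and 487 lower, and genes with none gave 873 higher and 837 lower, both with medians of 0.00 to -0.01. The median mean level of the E33-only genes went from 10.4 to 8.20 scaled TPM and that of the E60-only genes from 6.95 to 10.3, so the median level of each class was higher at the stage that had the peaks. Whether the level of the RNA set whether a peak could be called was not tested. Most genes that gained or lost all peaks were not called: 69.3% of E33-only and 61.1% of E60-only genes. Both shares were under the 72.7% of genes with peaks at both stages and the 80.2% of genes with none.

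The same classes were read from the side of expression. Of 544 higher genes with an E33 peak, 93.4% (Wilson interval 91.0 to 95.2) also had an E60 peak, against 63.6% (60.1 to 66.9) of 766 lower genes and 78.9% (77.5 to 80.2) of 3362 genes not called. As for the overlaps of peaks, the intervals cover counting error only. The peak lists have no replicates and genes are not replicates, so the intervals do not test a difference between these groups of genes. Of 703 higher genes with an E60 peak, 72.3% (68.8 to 75.4) already had an E33 peak, against 95.5% (93.3 to 97.0) of 510 lower genes. With TPM as deposited the E60-only genes called higher numbered 75.

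**Figure D4:**
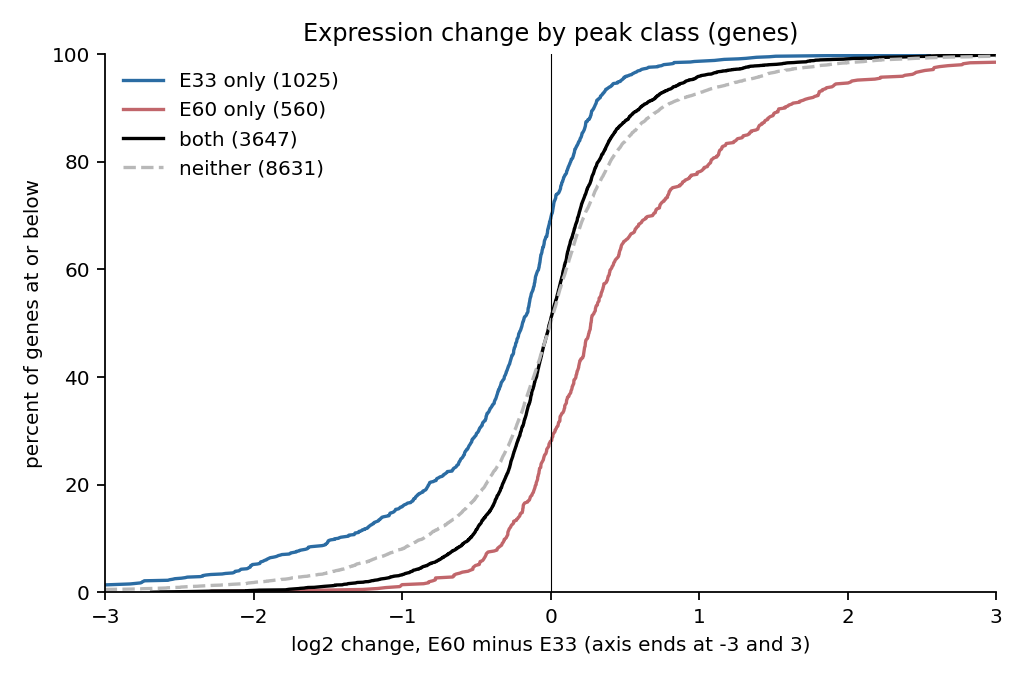
Cumulative distribution of the log2 change between E33 and E60 for tested genes by peak class (x axis, E60 minus E33, ends at -3 and 3; y axis, percent of the class at or below that change). The 1025 genes with a peak at E33 only (blue) lie to the left, the 560 with a peak at E60 only (red) to the right, and the 3647 with a peak at both (black) and the 8631 with none (grey, dashed) cross 0 near the middle.

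Some genes with large changes had a peak at 1 stage only. Of the 12 largest rises, MYOZ1 and FGL2 had a peak at E60 only, and CKM and TNNI2 at both stages. CA3, SOX18, MAFA, RPRML, EEF1A2, LIMS2, COMP and ADIRF, also among these rises, had no peak at either stage. CARNS1 and AQP4 were picked as large rises within the E60-only class, which held 560 of the 13863 genes tested. CARNS1, which makes the muscle dipeptide carnosine, had 4.0, 3.40 and 3.50 scaled TPM at E33 and 41.3, 53.5 and 51.3 at E60 (3.42, SE 0.12, limma adjusted p = 0.000165), and AQP4, the water channel of fast fibres, had 0.133, 0.339 and 0.219 scaled TPM at E33 and 10.4, 12.3 and 11.2 at E60 (3.32, SE 0.12, limma adjusted p = 0.000165). Both had peaks at E60 only, with fold enrichments of 4.29 and 4.17, beside MYOZ1 (3.85), FGL2 (7.13), MYOM2 (2.90) and PRELP (5.01). The coding peak of AQP4 printed above has its match 100 bases before the stop codon. SCN4A, whose rise is given above, had an enrichment of 23.7 in a coding peak of 599 bases at chr12:15045348-15045946. Peaks of this height at E60 only were also listed for ITPKA (24.5), a kinase of inositol phosphates with 0.528, 0 and 0.434 scaled TPM at E33 and 3.17, 7.14 and 3.75 at E60 (2.07, SE 0.31, limma adjusted p = 0.0066), and for the vasopressin receptor AVPR1A (23.1), with 4.36, 6.21 and 6.67 scaled TPM at E33 and 21.4, 18.6 and 24 at E60 (1.74, SE 0.17, limma adjusted p = 0.00153).

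Some genes that fell had peaks at E33 only, and others had none. KREMEN2, EFNA3, HOXD10, RXFP3 and MAPK15, all among the 12 largest falls, had no peak at either stage. ZIC2 had 2 peaks at E33, the stronger with a fold enrichment of 10.4, SFRP1 had 4 (3.20) and RUNX2 had 1 (5.07). At E60 these genes had 0.17 to 3.30 scaled TPM and no peak listed. HOXB8 (4.18), HOXC5 (2.24), CDH2 (1.81) and IGF2BP1 (1.84) also had peaks at E33 only. Some genes went the other way, at low and at high enrichments. PTN, the growth factor pleiotrophin, had 44, 53.8 and 58.2 scaled TPM at E33 and 11.4, 9.30 and 8.86 at E60 (-2.29, SE 0.15, limma adjusted p = 0.000466) and a peak at E60 only, with an enrichment of 1.79. ACTA1, SMPX and FABP5 rose and had a peak at E33 only, with enrichments of 1.43, 2.35 and 2.10. DACH1, a transcription factor, also rose (0.82, SE 0.17, limma adjusted p = 0.0185) with a peak at E33 only, at 15.1, a call lost with TPM as deposited and without E33 replicate 3 or E60 replicate 1 or 3 (limma adjusted p up to 0.229). POMGNT2 (-1.01), HDHD3 (-1.65), ACHE and SNPH (-1.17) fell and had a peak at E60 only, with enrichments of 19.8, 13.5, 10.6 and 5.02. The call for HDHD3 was lost without E60 replicate 1 or 2 (limma adjusted p up to 0.0561). A further rise with a peak at E33 only, SPAG5 (2.55), rests on an E33 peak at chr12:44829545-44829604 that covers nearly the same bases as the peak listed for ALDOC, chr12:44829546-44829606, so the 2 entries are not independent.

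The highest enrichments among genes with a peak at 1 stage were mostly in other genes, and 7 of these 12 genes were not called, against the 69.3% and 61.1% of both classes given above. At E33 only they were TLCD3A (22.8), MUL1 (21.3), HARBI1 (19.6), ITPKC (18.9), RGP1 (18.5) and SNX24 (18.3). At E60 only they were TENT5C (39.4), CUTC (25.6), ITPKA, SCN4A, AVPR1A and MARCHF9 (22.8). The call for TENT5C (0.76) was lost without any 1 library except E33 replicate 2 (limma adjusted p up to 0.0945). MUL1, a ubiquitin ligase of mitochondria, had 11.12, 9.36 and 10.4 scaled TPM at E33 and 8.94, 6.42 and 9.16 at E60 (-0.31, SE 0.15, limma adjusted p = 0.183), which did not pass the test. The TLCD3A entry at chr12:47116307-47116397 lies on the opposite strand of a GEMIN4 peak at chr12:47116312-47116402 with a like enrichment of 23.2, and the strand that the reads support was not tested.

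In genes with a peak at both stages, the strongest enrichment was somewhat higher at E60. The median log2 ratio of E60 over E33 was 0.15 over 3647 genes, 2278 of them higher at E60, with 0.16 in genes that rose, 0.18 in genes that fell and 0.14 in genes not called. The lists as wholes differed in the same direction, so these ratios are not set against 0. The largest ratios were in SLN (2.64 at E33 and 36.6 at E60), PATZ1 (2.31 and 19.8), RBM15 (5.35 and 38.5) and SAP130 (2.31 and 16.4). The smallest were in ZSCAN12 (25.1 and 3.39), GEMIN4 (23.2 and 3.28), CRACD (31.7 and 4.56) and FBXO5 (23.0 and 3.96). The peaks compared overlapped only in CRACD and FBXO5. In the other six genes the strongest peaks of the stages did not overlap, as in SLN, with the E33 peak in the 3' UTR and the E60 peak in the 5' UTR, so those values are of different sites and not changes at 1 site. Of these 8 genes, SLN rose, CRACD, an actin regulator, fell (-0.84, SE 0.09, limma adjusted p = 0.00174), and the rest were not called.

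Peaks of both stages gathered at the stop codon. Of 8532 E33 peaks on assembled chromosomes, 18.7% (Wilson interval 17.9 to 19.5) had their midpoint within 200 bases of a RefSeq stop codon along the transcript, and of 7429 E60 peaks 20.9% (20.0 to 21.8). A further 61.1% and 58.6% lay elsewhere in coding sequence, 9.15% and 9.81% in 3' UTRs, and 3.33% and 3.04% in 5' UTRs. Of the 1422 peaks of the E60 list with no E33 overlap, 24.8% (22.6 to 27.1) were near the stop codon, 13.7% (12.02 to 15.6) in 3' UTRs and 48.0% (45.4 to 50.6) in other coding sequence, against 20.0% (18.99 to 21.0), 8.89% (8.20 to 9.64) and 61.1% (59.8 to 62.3) of the 6007 overlapped E60 peaks. The E33 peaks with no E60 overlap were 16.8% (15.5 to 18.3) near the stop codon, 9.71% in 3' UTRs and 60.4% in other coding sequence.

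**Figure D5:**
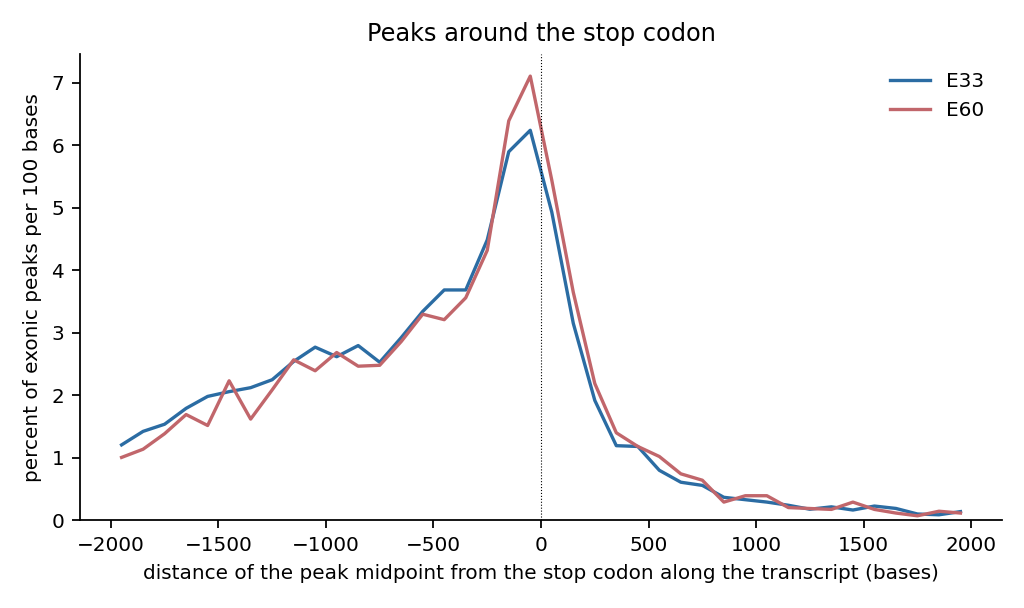
Percent of exonic peaks per 100 bases against the distance of the peak midpoint from the stop codon along the transcript (bases, negative before the stop), for the E33 and E60 lists. Both curves peak in the 100 bases before the stop codon and fall faster after it than before it.

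The sequence GGACT was counted in the same sets of peaks. In the middle 101 bases of peaks at least that long, on the strand of the peak, it was found in 16.7% (15.8 to 17.5) of E33 peaks and 18.9% (17.9 to 19.9) of E60 peaks, and in 8.16% and 8.74% on the opposite strand. Among peaks without an overlap it was found in 14.6% (13.01 to 16.3) of 1799 at E33 and in 23.0% (20.3 to 25.9) of 869 at E60. With GGACA and GGACC added, the shares of those peaks were 42.7% (40.4 to 45.0) and 53.0% (49.7 to 56.3). The E60 peaks without an overlap had a median fold enrichment of 3.92 and the E33 peaks without one 2.90, so the 2 sets differ in enrichment too, and its part in the motif shares was not tested. Of the junctions between peak blocks, 89.3% at E33 and 86.7% at E60 fell at RefSeq introns, and the peak's symbol was that of the RefSeq gene in 98.2% of the cases in which both had one.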

How the data were processed

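Expression was measured in 6 input libraries of rRNA-depleted longissimus dorsi RNA, 3 per stage. The deposited expression files hold TPM per Ensembl gene, computed by the authors with a program not given in the sources used here. The deposited peak lists hold, per the file headers, a fold enrichment and a p-value per peak. Per the submitters' processing notes, Trimmomatic, HISAT2 and the Sscrofa11.1 genome were used. The peak caller, its threshold and the pooling of replicates are not given in the sources used here. Levels in each immunoprecipitated sample are not analysed here.

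TPM were scaled by median ratio, filtered at a mean of 1 over the 6 libraries and compared as log2(scaled TPM + 1) in limma 3.58.1 (R 4.3.3) with trended empirical Bayes moderation, two-sided, on 4 residual degrees of freedom. Benjamini-Hochberg adjustment ran over all genes tested. In simulated data, 63 of 100 genes changed by 1 on the log2 scale and 89 of 100 changed by 2 were called. Of 13663 unchanged genes 7 were called. The changed genes were drawn from those above a minimum level. A gene that was not called may therefore still have changed. Peaks were overlapped with bedtools 2.31.1 by at least 1 base over their blocks and placed in RefSeq transcripts with pysam 0.24.0 and Python 3.11.15, with the midpoint deciding. The stop codon class spans 200 bases on either side. Symbols came from a table that paired 14746 of the 22427 identifiers, and 11157 of the genes tested.

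Named genes are the 12 largest rises and falls among called genes with a symbol and no overlap between the stages, up to 5 called members per list with the largest changes, the m6A genes, and for peaks the genes of highest enrichment or largest change per class. A further 33 list members were named after their values were seen. Some genes that these rules choose are not reported here. The 20 lists and the members were chosen with earlier results of these data known. Same-numbered libraries of both stages did not deviate together (correlations of 0.056, -0.057 and 0.063), so no replicate term was used. Alternatives changed the scaling, pseudocount, filter, model, libraries, overlap and stop codon distance.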

Additional observations from a re-analysis of the deposited data

How the results depend on the processing

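The number of genes called was 3238 and ranged from 2099 (without E33 replicate 3) to 2571 (without E60 replicate 1) when 1 library was left out. With TPM as deposited it was 1665. With the replicate number as a block it was 1916, although the numbers did not pair the libraries. Every gene called both in the comparison as reported and under one of these settings kept its direction. The share of calls higher at E60 ran from 48.1% to 52.1% over the left-out libraries and was 23.8% as deposited and 31.6% after removal of the 2 most abundant genes. Genes called higher with a peak at E60 only numbered 75 as deposited against 195. With only peaks above the median fold enrichment of their list, 2025 genes had a peak at both stages against 3647, since fewer peaks enter. Counting an overlap from 50% of the bases gave 61.0% of E33 and 76.6% of E60 peaks, and 400 bases around the stop codon held 29.1% and 31.4%. Of 167 named genes 129 were called. Of these, 111 kept the call without any 1 library and 88 under every setting that tested them, and 0 changed direction. The filter of 5 TPM tested only 142 of the 167, and a gene not tested there was not counted as lost. The losses were 31 as deposited, 16 with the block and 9 to 13 per left-out library. Quantile normalization, a pseudocount of 0.1, a filter of 5 TPM, no filter, no trend and all 18 libraries kept the number of calls within 1.5 times. Depth is unknown, so no counting error can be set on a level, and each peak list has no replicate.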
